A study of Mus musculus with 2 samples.

Results

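The 10 genes described here encode histone demethylases of the Jumonji C (JmjC) families: Kdm3a and Kdm3b, Kdm4a, Kdm4b and Kdm4c, Kdm5a, Kdm5b and Kdm5c, and Kdm6a and Kdm6b. They were taken by symbol from the 27998 genes that both libraries list, and all 10 were found. Transcripts were counted in single cells with the droplet method of 10x Genomics. The cells were AB2.2, an established mouse embryonic stem cell line, differentiated for 4 days toward mesendoderm, the shared precursor of mesoderm and endoderm. The PHD2-KO library is of cells without PHD2, the product of Egln1 and a prolyl hydroxylase that senses oxygen, and the WT library is of cells without that knockout. Each group was 1 library. The number of clones or cultures behind a library, the altered part of Egln1 and the cultures' oxygen level are, in the sources used here, not given.

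JmjC demethylases remove methyl groups from histone lysines in a reaction that consumes molecular oxygen and 2-oxoglutarate and needs Fe(II), the same cofactors that PHD2 uses. When PHD2 is inactive, the hypoxia-inducible factors (HIF) are not marked for breakdown, and several demethylase genes, Kdm3a and Kdm4b among them, are known HIF targets. In embryonic stem cells the methylation marks that these enzymes remove sit at silent lineage genes and at active promoters, and they are redistributed as cells enter the primitive streak.

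After filtering, 6927 PHD2-KO and 8515 WT cells remained. The median count of unique molecular identifiers (UMIs) per cell was 20999 in PHD2-KO and 20444 in WT, and the median number of genes 3853 in PHD2-KO and 3576 in WT. Levels below are UMIs summed over the cells of a group scaled to 1000000 UMIs of that group (CPM). With 1 library per group no test was possible, and the 95% intervals given (exact Poisson for levels, exact conditional binomial for folds, exact binomial for shares) cover counting error only. A gene was called higher or lower where its level was at least 5 CPM in the higher group and the groups differed by at least 1.5-fold, which is a rule of size. Egln1 was at 13.7 CPM in PHD2-KO cells and 18.2 CPM in WT cells, and since it is not known which part of Egln1 was altered, this level does not check the labels. T, the primitive streak gene that encodes Brachyury, was at 317.8 CPM in PHD2-KO cells and 5.81 CPM in WT cells. T is 1 of 8 streak markers, whose summed level was 771 CPM in PHD2-KO cells and 70.9 CPM in WT cells, and the 6 nascent mesoderm markers summed to 288 CPM in PHD2-KO cells and 11.1 CPM in WT cells. The 6 general pluripotency markers summed to 331 CPM in PHD2-KO cells and 721 CPM in WT cells, each above 5 CPM in both libraries. They did not all go one way. In T+ and T- cells, defined below, Utf1 was at 88.0 and 174 CPM in PHD2-KO, against 354 and 429 CPM in WT. Pou5f1 and Gdf3 were also lower in PHD2-KO in both states. Nanog was higher, at 47.6 and 36.6 CPM in PHD2-KO against 42.8 and 34.3 CPM in WT. Sox2 and Dppa4 were lower in PHD2-KO among T+ cells and higher among T- cells. Markers of feeder fibroblasts summed to 10.8 CPM in PHD2-KO cells, with 1 of 8 at 5 CPM or more and Lum and Postn at 0, and to 2.76 CPM in WT cells, with 0 of 8 at 5 CPM. The 1 gene was Cdh11, at 6.81 CPM in T+ and 9.23 CPM in T- cells of PHD2-KO, while Col1a1, Col3a1 and Dcn were at or below 0.893 CPM in both. Col1a2 was at 1.76 CPM in T+ and 2.23 CPM in T- cells of PHD2-KO, against 0.960 and 0.672 CPM in those of WT. Thy1 was at 0.967 CPM in T+ and 1.41 CPM in T- cells of PHD2-KO, against 1.03 and 1.42 CPM in those of WT. The part of these differences between the libraries in the results below was not tested. In all, 22 cell barcodes occurred in both libraries.

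Kdm3a removes mono- and dimethylation from lysine 9 of histone H3 (H3K9). Its level was 10.2 CPM in PHD2-KO cells (1601 UMIs; interval 9.67 to 10.7), against 4.88 CPM in WT cells (985 UMIs; 4.58 to 5.199). The PHD2-KO level was 2.08 times the WT level (1.92 to 2.25), and the 2 libraries' intervals lay far apart. Kdm3a was the 1 member of the 9 measured at 5 CPM or more that was called higher, and 0 members were called lower. Over all 8537 genes measured, 11.7% were called higher and 2.35% lower, so 1 in 9 is close to the background. On the scale of log2(CPM + 1), used for all log2 ratios here, Kdm3a differed by 0.92, which was above that of 96.4% of those genes. In such sums, fewer expressing cells and less RNA per cell cannot be told apart.

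The windows around the annotated starts of 4 members are shown because Kdm3a had the largest ratio, Kdm5b the next among the measured members, and Kdm4a and Kdm4c the lowest. They are 300-base windows of the RefSeq genes on GRCm38.p6, from 250 bases before to 50 bases after a transcript start, printed 5′ to 3′ in the direction of the gene. Capitals mark the letters ACGTG or GCGTG, the core that HIF recognises, on either strand. CACGTG reads as ACGTG on both strands and so holds 2 overlapping matches. The Kdm3a window is chr6:71632868-71633167 (minus strand), the Kdm5b window chr1:134559928-134560227 (plus strand), the Kdm4a window chr4:118179994-118180293 (minus strand), and the Kdm4c windows are chr4:74242247-74242546 and chr4:74251629-74251928 (plus strand).
Kdm3a: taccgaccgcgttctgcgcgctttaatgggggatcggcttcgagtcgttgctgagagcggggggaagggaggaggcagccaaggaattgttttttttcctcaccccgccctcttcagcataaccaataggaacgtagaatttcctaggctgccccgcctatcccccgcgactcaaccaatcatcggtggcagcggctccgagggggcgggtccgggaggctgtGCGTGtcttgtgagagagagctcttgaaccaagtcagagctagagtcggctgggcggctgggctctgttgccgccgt
Kdm5b: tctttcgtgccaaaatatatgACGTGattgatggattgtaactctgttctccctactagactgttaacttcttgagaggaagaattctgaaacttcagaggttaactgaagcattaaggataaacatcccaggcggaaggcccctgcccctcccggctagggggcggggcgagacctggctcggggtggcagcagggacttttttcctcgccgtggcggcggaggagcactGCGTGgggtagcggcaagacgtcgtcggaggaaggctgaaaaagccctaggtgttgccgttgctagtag
Kdm4a: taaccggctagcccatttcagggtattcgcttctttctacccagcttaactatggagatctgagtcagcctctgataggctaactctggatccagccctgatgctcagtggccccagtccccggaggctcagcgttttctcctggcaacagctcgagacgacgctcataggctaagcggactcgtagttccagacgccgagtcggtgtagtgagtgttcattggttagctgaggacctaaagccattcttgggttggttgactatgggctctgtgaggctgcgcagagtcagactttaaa
Kdm4c first window: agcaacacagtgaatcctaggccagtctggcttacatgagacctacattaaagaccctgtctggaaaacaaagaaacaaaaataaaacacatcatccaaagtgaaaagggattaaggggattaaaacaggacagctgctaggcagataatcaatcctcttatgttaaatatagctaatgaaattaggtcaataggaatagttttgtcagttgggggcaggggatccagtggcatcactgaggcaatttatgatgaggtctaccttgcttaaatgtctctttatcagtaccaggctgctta
Kdm4c second window: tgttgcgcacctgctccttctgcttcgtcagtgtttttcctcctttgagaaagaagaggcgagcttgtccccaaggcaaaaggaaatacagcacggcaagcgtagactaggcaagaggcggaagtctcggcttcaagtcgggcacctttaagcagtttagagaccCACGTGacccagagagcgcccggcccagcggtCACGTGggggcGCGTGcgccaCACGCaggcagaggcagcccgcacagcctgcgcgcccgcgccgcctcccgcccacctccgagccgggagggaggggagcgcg

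The Kdm3a window held 1 match, GCGTG at position -27 from the transcript start, and the other 2 Kdm3a windows in the table held 0. The Kdm5b window held 2 matches and the Kdm4a window 0. The first Kdm4c window, at the annotated gene start, held 0 matches, and the second, 9382 bases downstream of that start, held 6, with CACGTG 2 times. Kdm6a, whose window is not printed, had 4 matches and Kdm5c had 0. Of all 32851 windows of this length, 43.8% held ACGTG or GCGTG (19.6% and 32.4%), and 7.15% held CACGTG. Windows were found for 6 members (9 windows in all), and 3 of the 6 held a match in the window nearest the annotated start. A match describes these letters and is no binding site. Kdm3b, Kdm4b, Kdm5a and Kdm6b are named only.

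Kdm3b, the paralog of Kdm3a with the same H3K9 marks as substrate, was at 12.4 CPM in PHD2-KO cells (1947 UMIs), against 9.21 CPM in WT cells (1857 UMIs). That is 1.34-fold (1.26 to 1.43), below the 1.5-fold limit. The KDM4 enzymes remove trimethylation of H3K9 and H3K36. Kdm4a was at 10.4 CPM in PHD2-KO cells and 10.3 CPM in WT cells, a fold of 1.01 (0.949 to 1.08) whose interval holds 1. Kdm4b was at 2.89 CPM in PHD2-KO cells (456 UMIs) and 1.998 CPM in WT cells (403 UMIs), 1.45-fold (1.26 to 1.66). It lay below 5 CPM in both libraries and so was not among the 9 measured members. Kdm4c was at 10.5 CPM in PHD2-KO cells, against 12.9 CPM in WT cells, a fold of 0.820 (0.770 to 0.872). It was the 1 member whose interval lay wholly below 1.

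The KDM5 enzymes remove di- and trimethylation of H3K4, the mark of active promoters. Kdm5b was at 89.2 CPM in PHD2-KO cells (14052 UMIs) and 60.3 CPM in WT cells (12169 UMIs), 1.48-fold (1.44 to 1.51), just short of a call. Kdm5a was at 28.7 CPM in PHD2-KO cells and 21.6 CPM in WT cells, 1.33-fold (1.27 to 1.39). Kdm5c, which is X-linked, was at 17.8 CPM in PHD2-KO cells and 14.8 CPM in WT cells, 1.204-fold (1.14 to 1.27). None of these 3 was called, while all 3 intervals lay above 1. The KDM6 enzymes remove di- and trimethylation of H3K27, the Polycomb mark. Kdm6a (UTX), also X-linked, was at 20.004 CPM in PHD2-KO cells and 14.8 CPM in WT cells, 1.35-fold (1.28 to 1.42). Kdm6b (JMJD3) was at 23.6 CPM in PHD2-KO cells and 17.4 CPM in WT cells, also 1.35-fold (1.29 to 1.42).

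**Figure D1:**
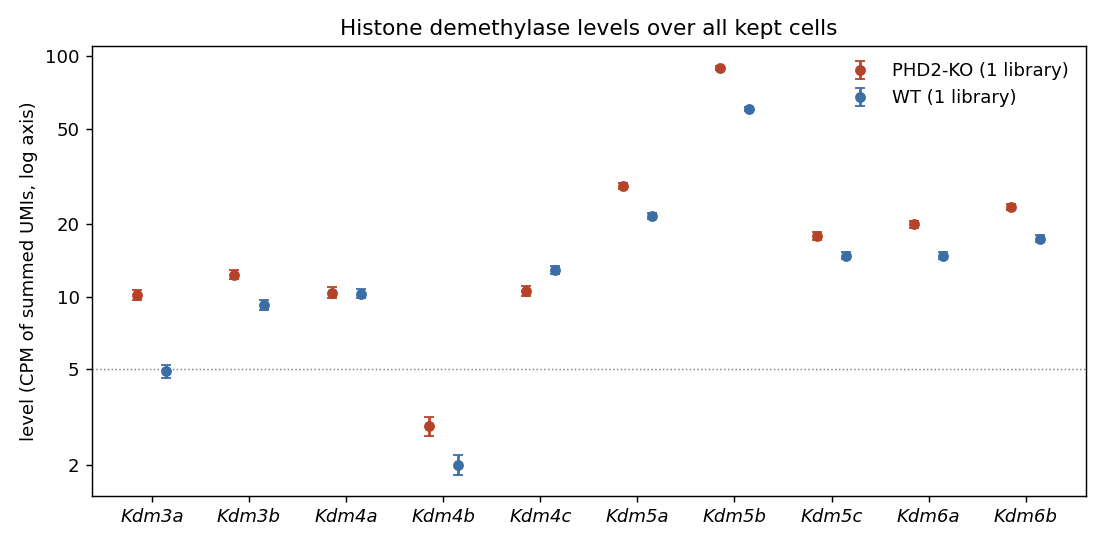
Level of each of the 10 demethylase genes in CPM (log axis), with PHD2-KO left of WT for each gene. Points are sums over all kept cells of 1 library and bars are 95% Poisson intervals (counting error only); the dotted line marks 5 CPM. Kdm3a is at 10.2 CPM in PHD2-KO cells and 4.88 CPM in WT cells, Kdm4a is near 10 in both, and Kdm4c is lower in PHD2-KO cells.

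Of the 10 fold intervals, 8 lay above 1, 1 lay below 1 (Kdm4c) and 1 held 1 (Kdm4a). The shares of all genes with such intervals were not counted, so these counts are no result about the members. The 9 measured members had a median log2 ratio of 0.39, with a range of -0.26 to 0.92. All 8537 measured genes had a median of 0.16 with quartiles of -0.05 and 0.36, and 69.7% of them had a ratio above 0. The members thus leaned the same way as most genes, and 7 of 9 lay above the median gene. Size factors from median ratios in place of UMI totals moved the median gene to 0.02, and the members' median to 0.26. With them 7.34% of genes were called higher and 4.17% lower, so that 63.8% of all calls were higher ones, against 83.2% with totals. Kdm3a stayed called under that scaling at 1.88-fold, and the ratio of Kdm4a changed sign to 0.916-fold.

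On mm10 (GENCODE M21), Kdm3a lies on chromosome 6 from 71588972 to 71632990, minus strand. The other 390 genes measured on chromosome 6 had a median log2 ratio of 0.17, and Kdm3a was above 94.4% of them. Kdm4c (chromosome 4, 74242497 to 74405860) was above 9.52% of 546 genes on its chromosome, which had a median of 0.13. Kdm5b (chromosome 1, 134560171 to 134635285) was above 89.5% of 465 genes with a median of 0.17. For the X-linked members, the 301 other genes on X had a median of 0.29, so that the log2 ratios of Kdm5c (0.25) and Kdm6a (0.41) were at 44.5% and 61.5% of the order. Kdm5c and Kdm6a have Y-linked paralogs of similar sequence, between which the counting could have split reads. Kdm5d was at 1.80 CPM in PHD2-KO cells and 0.972 CPM in WT cells, and Uty at 7.38 CPM in PHD2-KO cells and 5.13 CPM in WT cells. Kdm5a overlaps Ccdc77 on the other strand (19.4 CPM in PHD2-KO cells, 18.1 CPM in WT cells), and since the sources used here do not say whether counting used strand, part of its reads could come from that gene. The overlapping partners of Kdm3b, Kdm4c and Kdm6b were at most 2.03 CPM in either library.

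Cells were next divided by T. Each cell was thinned at random to 14000 UMIs, and a cell with at least 1 remaining T UMI was called T+. Shallower cells, 644 of PHD2-KO and 773 of WT, were left out. Of the PHD2-KO cells 5143 (81.9%) were T+ and 1140 were T-, and of the WT cells 511 (6.60%) were T+ and 7231 were T-. T itself was at 382 CPM in T+ and 25.3 CPM in T- cells of PHD2-KO, and at 56.1 CPM in T+ and 2.08 CPM in T- cells of WT. The summed streak markers were at 879 CPM in T+ and 292 CPM in T- PHD2-KO cells, and at 180 CPM in T+ and 62.9 CPM in T- WT cells. Both T+ and T- cells thus differed between the 2 libraries in T and in the other streak markers, and 492 of the 511 WT T+ cells had 1 or 2 T UMIs. In T- cells Mesp1 was at 183 CPM in PHD2-KO and 0.355 CPM in WT. A comparison within a T state therefore does not hold the state of the cells fixed.

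Kdm3a was called higher in PHD2-KO cells within both T states. In T- cells it was at 10.5 CPM in PHD2-KO cells and 4.93 CPM in WT cells, 2.13-fold (1.86 to 2.44). In T+ cells it was at 10.1 CPM in PHD2-KO cells and 3.62 CPM in WT cells, 2.78-fold (2.09 to 3.78), where the WT value rests on 49 UMIs. It was the 1 member called in each state, where 12.1% (T- cells) and 9.9% (T+ cells) of all genes were called higher and 1.84% and 2.78% lower. Kdm5b was at 89.6 CPM in PHD2-KO and 59.8 CPM in WT T- cells, 1.497-fold (1.43 to 1.57), and at 90.0 CPM in PHD2-KO and 64.1 CPM in WT T+ cells, 1.40-fold (1.31 to 1.51). Kdm6a was at 19.3 CPM in PHD2-KO and 14.7 CPM in WT T- cells (1.31-fold), and at 20.2 CPM in PHD2-KO and 13.7 CPM in WT T+ cells (1.48-fold; 1.27 to 1.73). Kdm4c was at 11.3 CPM in PHD2-KO and 12.6 CPM in WT T- cells, 0.893-fold with an interval that holds 1 (0.789 to 1.01), and at 10.4 CPM in PHD2-KO and 13.5 CPM in WT T+ cells, 0.773-fold (0.661 to 0.907). Whether these folds differ between T states was not tested. With a stricter T+ rule of at least 2 T UMIs, which leaves 70 WT cells, 3 members were called (11.2% of genes higher, 5.64% lower): Kdm3a at 2.64-fold, Kdm6a at 1.54-fold and Kdm4c at 0.652-fold, on 7, 24 and 29 WT UMIs.

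**Figure D2:**
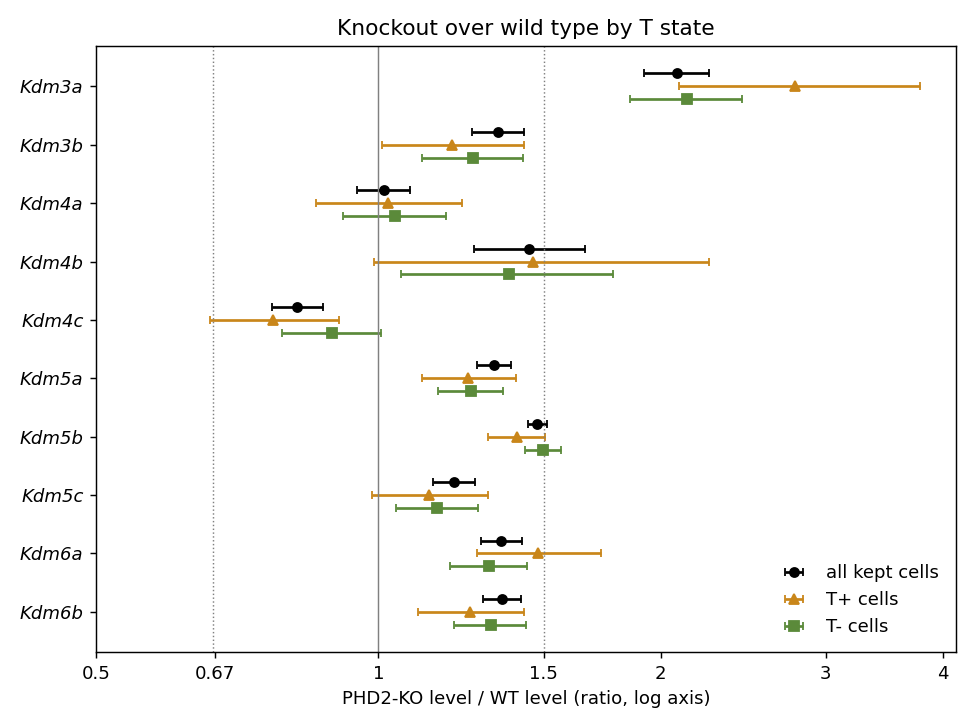
PHD2-KO level divided by WT level (log axis) for each gene over all kept cells (circles), T+ cells (triangles) and T- cells (squares), with 95% counting intervals; dotted lines mark 1.5-fold in either direction. Kdm3a lies beyond 1.5-fold in all 3, from 2.08 to 2.78, and Kdm4c lies below 1 in all 3.

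Within each library no measured member was called between T states. In PHD2-KO cells 0 of 9 measured members were called between T+ and T- cells, where 1.86% of all genes were called higher and 2.09% lower. Their folds ran between 0.926 for Kdm4c (10.4 CPM in T+ and 11.3 CPM in T- cells) and 1.12 for Kdm3b (12.7 CPM in T+ and 11.4 CPM in T- cells). The median log2 ratio was 0.06, beside 0.00 for all 8623 genes. Of the 10 intervals 9 held 1, a count that was not taken over all genes. The exception was Kdm5a at 29.2 CPM in T+ and 26.8 CPM in T- cells (1.09-fold; 1.004 to 1.18). Kdm3a was at 10.1 CPM in T+ and 10.5 CPM in T- cells of PHD2-KO, 0.959-fold (0.842 to 1.10), so its level in the knockout was much the same in cells with and without detected T. Within the high range of chromosome 8 share, described below, Kdm3a was at 8.47 CPM in T+ and 10.2 CPM in T- cells (0.827-fold; 0.694 to 0.991), and within the low range at 11.8 CPM in T+ and 10.9 CPM in T- cells (1.08-fold; 0.888 to 1.33). Kdm4a was at 9.59 CPM in T+ and 12.2 CPM in T- cells of the low range (0.786-fold; 0.649 to 0.958), and at 11.2 CPM in T+ and 9.61 CPM in T- cells of the high range (1.17-fold; 0.980 to 1.40). No member was called in either range (high range, 1.7% of genes higher and 2.46% lower; low range, 2.4% higher and 2.23% lower). In WT cells 0 of 8 measured members were called, where 0.385% of genes were called higher and 0.211% lower. WT Kdm3a was at 3.62 CPM in T+ and 4.93 CPM in T- cells (0.735-fold; 0.539 to 0.980). It was below 5 CPM in both and so not among the 8. Its log2 ratio was above that of 0.485% of the 8044 measured genes.

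The members were also followed along the level of T. From PHD2-KO cells with 0 T UMIs over those with 1 or 2, 3 to 5, and 6 or more, Kdm3a was at 10.5, 9.59, 9.19 and 11.2 CPM. Kdm5b was at 89.6, 86.8, 85.9 and 96.0 CPM, and Kdm6b at 22.6, 23.2, 24.5 and 23.5 CPM over the same 4 bins. Neither followed T in one direction. Kdm5a was at 26.8, 26.8, 28.7 and 31.7 CPM, and Kdm5c at 16.97, 16.5, 18.5 and 19.3 CPM. All members but Kdm4c and Kdm6b had their top value in the highest T bin. How many of all genes do so was not counted, so that is no result about the members. Between the extreme bins Kdm3b differed most, at 13.9 CPM with 6 or more T UMIs and 11.4 CPM with 0 (1.22-fold; 1.06 to 1.40), followed by Kdm5a (1.18-fold; 1.08 to 1.29). None of the 9 measured members was called there (3.59% of genes higher, 3.61% lower). Their median log2 ratio was 0.10, beside 0.03 for all 8737 genes. Of the 9, 8 lay above 0, where 55.8% of all genes did. Across the 4 bins the highest level was 1.08 times the lowest for Kdm6b and 1.24 times for Kdm4b, the ends of the range over members. For 8 members every PHD2-KO bin lay above both WT states, for Kdm4c every bin lay below them, and for Kdm4a they overlapped. The share of all genes that do so was not counted, so the 8 is no result about the members. Over all kept cells, 69.7% of the 8537 measured genes had a log2 ratio of PHD2-KO to WT above 0.

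**Figure D3:**
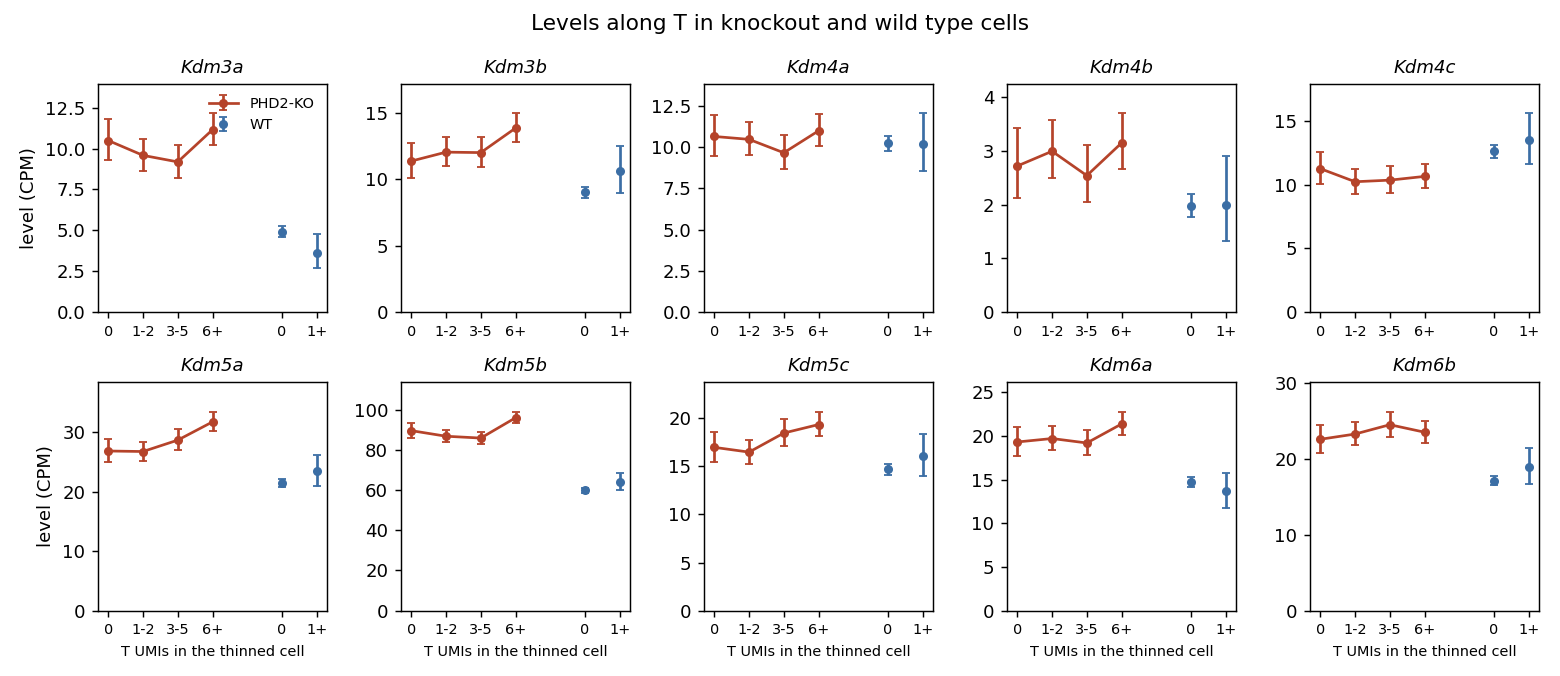
Level of each gene in CPM along T, in PHD2-KO cells with 0, 1 to 2, 3 to 5 and 6 or more T UMIs after thinning (red line) and in WT cells with 0 and 1 or more (blue points), with 95% Poisson intervals; each panel has its own axis from 0. Kdm3a stays between 9.19 and 11.2 CPM in PHD2-KO cells and at 3.62 and 4.93 CPM in WT cells.

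Among the T+ PHD2-KO cells, 1732 also had a Mesp1 UMI after thinning and 3411 had none. Mesp1 marks nascent mesoderm, and 1 WT cell was T+ with Mesp1, so the comparison was made in the knockout alone. Kdm4c and Kdm4a had the lowest ratios. Kdm4c was at 7.93 CPM in Mesp1+ and 11.7 CPM in Mesp1- cells, 0.678-fold (0.596 to 0.770), just short of a call. Kdm4a was at 8.30 CPM in Mesp1+ and 11.5 CPM in Mesp1- cells, 0.722-fold (0.636 to 0.818). Kdm6a was at 17.9 CPM in Mesp1+ and 21.4 CPM in Mesp1- cells (0.836-fold; 0.766 to 0.911), and Kdm3a at 9.05 CPM in Mesp1+ and 10.6 CPM in Mesp1- cells (0.856-fold; 0.756 to 0.967). Kdm6b went the other way, at 25.7 CPM in Mesp1+ and 22.7 CPM in Mesp1- cells (1.13-fold; 1.05 to 1.22). Of the 9 measured members 0 were called, where 1.65% of genes were called higher and 2.53% lower. Their median log2 ratio was -0.14, beside -0.02 for all 8589 genes. Of the 9, 8 lay below 0 and 1 above, where 44.8% of all genes lay above 0.

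A chromosome difference moved with Mesp1. The share of a cell's UMIs that come from chromosome 8 was divided into 2 ranges, split at 6.03%. The number of ranges was set beforehand, and whether the cells form 2 groups was not tested. Of the PHD2-KO cells 3819 were in the high range and 3108 in the low, and of the WT cells 7200 were in the high range and 1315 in the low. Among T+ PHD2-KO cells the high range held 41.4% of Mesp1+ and 59.0% of Mesp1- cells. Kdm4a kept its ratio within both ranges, at 8.86 CPM in Mesp1+ and 12.04 CPM in Mesp1- cells of the high range (0.735-fold; 0.609 to 0.883) and at 7.92 CPM in Mesp1+ and 10.8 CPM in Mesp1- cells of the low range (0.736-fold; 0.616 to 0.877). Kdm4c was at 9.28 CPM in Mesp1+ and 11.6 CPM in Mesp1- cells of the high range (0.7999-fold; 0.665 to 0.958). In the low range it was called lower, at 7.03 CPM in Mesp1+ and 11.8 CPM in Mesp1- cells (0.594-fold; 0.495 to 0.711), where 2.1% of genes were called higher and 4.6% lower. In the high range no member was called (0.907% of genes higher, 0.954% lower). Kdm6b was at 21.6 CPM in Mesp1+ and 21.4 CPM in Mesp1- cells of the high range (1.01-fold; 0.892 to 1.14), and at 28.4 CPM in Mesp1+ and 24.4 CPM in Mesp1- cells of the low range (1.16-fold; 1.05 to 1.29). For Kdm6a and Kdm3a the high-range intervals held 1, at 0.906-fold (0.802 to 1.02) and 0.874-fold (0.711 to 1.07). In the low range Kdm6a was at 0.850-fold (0.747 to 0.967) and Kdm3a at 0.768-fold (0.655 to 0.898). This split within Mesp1 groups was chosen after the data were seen.

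Of the members' folds between the libraries, that of Kdm6a differed most between the ranges of chromosome 8 share. In the high range Kdm6a was at 22.9 CPM in PHD2-KO cells and 14.6 CPM in WT cells, 1.56-fold (1.47 to 1.66), and was called higher. In the low range it was at 16.7 CPM in PHD2-KO cells and 15.8 CPM in WT cells, 1.06-fold (0.951 to 1.18), an interval that holds 1. Within PHD2-KO the high range was 1.37 times the low (1.28 to 1.48). There the 314 other genes on X had a median log2 ratio of 0.01, and Kdm6a was above 82.8% of them. Within WT the high range was 0.927 times the low (0.841 to 1.02). In this comparison of ranges 0 members were called in PHD2-KO (2.47% of genes higher, 2.55% lower) and 0 in WT (1.04% higher, 2.24% lower). Among PHD2-KO cells with a low chromosome 11 share, Kdm6a was at 23.4 CPM in the high and 17.4 CPM in the low chromosome 8 range (1.35-fold; 1.25 to 1.45), with 0 members called (2.66% of genes higher, 2.94% lower). Kdm6b was at 21.4 CPM in the high and 26.1 CPM in the low chromosome 8 range of PHD2-KO (0.818-fold; 0.766 to 0.872), and Kdm3a at 8.95 CPM in the high and 11.5 CPM in the low range (0.775-fold; 0.702 to 0.856). Kdm3b (0.801-fold) and Kdm4b (0.817-fold, under 5 CPM) had like ratios.

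Kdm3a was called higher in PHD2-KO cells in both ranges, at 8.95 CPM in PHD2-KO and 4.82 CPM in WT cells of the high range (1.86-fold; 1.68 to 2.05) and at 11.5 CPM in PHD2-KO and 5.24 CPM in WT cells of the low range (2.20-fold; 1.86 to 2.63). Kdm5b passed the limit in the low range, at 94.8 CPM in PHD2-KO and 62.5 CPM in WT cells (1.52-fold; 1.44 to 1.59), and was at 84.3 CPM in PHD2-KO and 59.9 CPM in WT cells of the high range (1.41-fold; 1.36 to 1.45). Thus 2 members were called in each range, where 11.1% of genes (high range) and 11.6% (low range) were called higher and 2.0% and 4.03% lower. Kdm6b lies on chromosome 11, whose share of UMIs was likewise divided into 2 ranges, with 691 PHD2-KO and 72 WT cells above the split at 12.5%. In PHD2-KO cells Kdm6b was at 28.4 CPM in the high and 23.0 CPM in the low chromosome 11 range (1.24-fold; 1.13 to 1.36). That is less than the median chromosome 11 gene, whose log2 ratio was 0.51. Because the cells were split by this share, a raised median of its genes follows from the split and is no independent reference. Kdm6a was at 13.9 CPM in the high and 20.8 CPM in the low chromosome 11 range (0.669-fold; 0.586 to 0.761), not called. There 5.34% of genes were called higher and 2.19% lower. Between the libraries within the high chromosome 11 range, a split added after the data were seen, 17.9% of genes were called higher and 6.16% lower, and 3 members were called on few WT UMIs. Kdm3a had 230 UMIs in PHD2-KO and 1 in WT (20.5-fold; 3.65 to 814), Kdm4a was at 12.5 CPM in PHD2-KO and 6.19 CPM in WT cells (2.02-fold; 1.08 to 4.28; 10 WT UMIs), and Kdm4c at 12.7 CPM in PHD2-KO and 19.8 CPM in WT cells (0.641-fold; 0.442 to 0.959; 32 WT UMIs). The part of these chromosome ranges in the differences between the libraries was not tested.

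**Figure D4:**
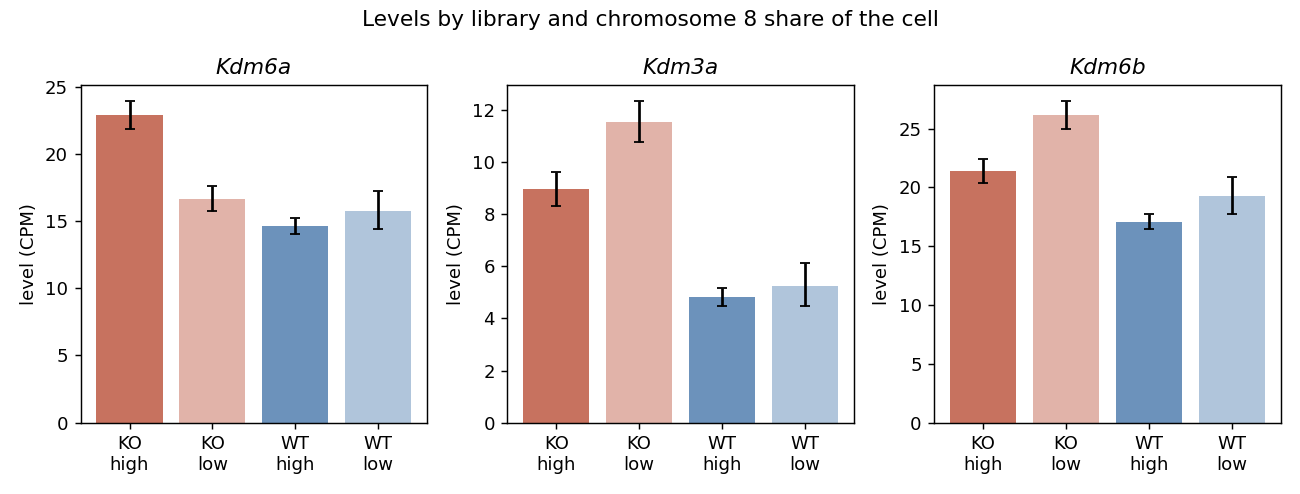
Level in CPM of Kdm6a, Kdm3a and Kdm6b in PHD2-KO and WT cells with a high and a low share of chromosome 8 UMIs; bars are sums over the cells of 1 library from an axis at 0, with 95% Poisson intervals. Kdm6a is at 22.9 CPM in PHD2-KO cells of the high range and between 14.6 and 16.7 CPM in the other 3 groups, and Kdm3a is higher in PHD2-KO cells in both ranges.

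Detection in single cells was compared at equal depth. At 14000 UMIs per cell, Kdm3a had a UMI in 12.6% of PHD2-KO cells (11.8 to 13.4) and in 6.21% of WT cells (5.69 to 6.77). Before thinning the same cells gave 19.7% in PHD2-KO and 10.8% in WT. By T state the thinned share was 12.7% in T+ and 12.2% in T- cells of PHD2-KO, and 5.09% in T+ and 6.29% in T- cells of WT. Kdm5b had a UMI in 64.9% of PHD2-KO cells and 52.4% of WT cells, Kdm5a in 30.9% of PHD2-KO and 25.5% of WT cells, and Kdm5c in 21.8% of PHD2-KO and 18.3% of WT cells. Kdm6b was found in 25.8% of PHD2-KO and 19.99% of WT cells, and Kdm6a in 22.9% of PHD2-KO and 18.3% of WT cells. Kdm3b was found in 15.4% of PHD2-KO and 12.1% of WT cells, and Kdm4b in 4.04% of PHD2-KO and 2.78% of WT cells. Kdm4c was found in 12.7% of PHD2-KO cells, against 16.1% of WT cells, and Kdm4a in 12.7% of PHD2-KO (11.9 to 13.6) and 12.9% of WT cells (12.2 to 13.7), whose intervals overlap. The unthinned shares over the same cells were higher for all 10 genes, between 6.45% and 78.6% in PHD2-KO and between 4.74% and 68.4% in WT. No cell type in these cultures is known to lack these genes, so no background share from free RNA can be set beside them.

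A thinned PHD2-KO cell held UMIs of 2.24 of the 10 genes on average, and a thinned WT cell of 1.85. None of the 10 was found in 8.32% of PHD2-KO cells and 13.8% of WT cells, and 5 or more were found in 5.19% of PHD2-KO and 3.01% of WT cells. The largest number in 1 cell was 8 in PHD2-KO and 7 in WT. Before thinning, these cells had a median of 3938 genes in PHD2-KO and 3657 in WT. Such counts were not taken for other genes, so they are no result about the members. Kdm5b counts varied more between cells than sampling alone gives, with a variance of 1.40 times the mean in PHD2-KO and 1.24 times in WT, where genes of like mean had medians of 1.11 and 1.07. Kdm5b was above 89.7% of genes of like mean in PHD2-KO and 87.0% in WT. For the other 9 genes the quotient of variance and mean lay between 0.991 and 1.12 in both libraries. Among genes of like mean these 9 stood between 16.2% (Kdm5c) and 82.8% (Kdm4c) of the order in PHD2-KO. In WT they stood between 10.3% (Kdm4b) and 79.7% (Kdm6a).

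Cells with Zfp42, a marker of naive pluripotency, were compared because the naive markers summed to 507 CPM in T+ and 1366 CPM in T- PHD2-KO cells. This split was chosen after the data were seen. Kdm3a was at 11.96 CPM in Zfp42+ and 9.36 CPM in Zfp42- cells of PHD2-KO (1.28-fold; 1.149 to 1.42), and at 5.79 CPM in Zfp42+ and 4.57 CPM in Zfp42- cells of WT (1.27-fold; 1.09 to 1.47). Kdm6a was at 23.2 CPM in Zfp42+ and 18.7 CPM in Zfp42- cells of PHD2-KO (1.24-fold; 1.1498 to 1.34), and at 15.9 CPM in Zfp42+ and 14.3 CPM in Zfp42- cells of WT (1.11-fold; 1.02 to 1.21). In this comparison 0 members were called in either library (in PHD2-KO 0.818% of genes higher and 0.199% lower, in WT 0.539% higher and 0.0% lower). Between the libraries Kdm3a was called higher in both states, at 11.96 CPM in PHD2-KO and 5.79 CPM in WT Zfp42+ cells (2.07-fold; 1.77 to 2.41) and at 9.36 CPM in PHD2-KO and 4.57 CPM in WT Zfp42- cells (2.05-fold; 1.86 to 2.26). Among Zfp42+ cells it was the 1 member called (11% of genes higher, 2.25% lower). Kdm5b, at 87.3 CPM in PHD2-KO and 58.2 CPM in WT Zfp42- cells, was also called among Zfp42- cells (1.5001-fold, at the limit; 1.46 to 1.54; 13.1% of genes higher, 2.51% lower).

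By the distance between centred log2 profiles over 6 groups (the 4 PHD2-KO bins and the 2 WT states), the genes most like Kdm3a among 8889 were Gnb4, Ankrd37 and Usp26. Gnb4, a G protein beta subunit, was at 11.4 CPM in PHD2-KO cells and 5.36 CPM in WT cells (distance 0.13). Ankrd37, an ankyrin repeat gene, was at 17.03 CPM in PHD2-KO cells and 8.20 CPM in WT cells (0.18). Usp26, a deubiquitinase, was at 20.2 CPM in PHD2-KO cells and 10.8 CPM in WT cells (0.20). The 6 groups come from 2 libraries and are not independent.

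The partners of these enzymes were read from lists of related genes, 76 in all, of which 64 were measured. Of these, 8 (12.5%) were called higher and 0 lower, beside 11.7% and 2.35% of all genes, and between T+ and T- cells of PHD2-KO 0 of 65 were called. With size factors from median ratios, 2 of 63 were called higher, Kdm7a and Egln3, so the other 6 calls given here rest on scaling to UMI totals. Among other JmjC genes 1 of 10 was called, Kdm7a, an H3K9 and H3K27 demethylase, at 5.48 CPM in PHD2-KO cells and 2.55 CPM in WT cells (2.15-fold), and the median log2 ratio was 0.16. Among the FAD-dependent demethylases and their CoREST scaffolds 1 of 3 was called, Rcor1, at 16.0 CPM in PHD2-KO cells and 10.2 CPM in WT cells (1.57-fold; list median 0.43).

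The methyltransferases lay down the marks that these enzymes remove. Of 8 PRC2 genes, which deposit H3K27 methylation, 3 were called higher. The core subunit Suz12 was at 55.2 CPM in PHD2-KO and 35.1 CPM in WT cells (1.57-fold), the histone binder Rbbp7 at 362 CPM in PHD2-KO and 229 CPM in WT cells (1.58-fold), and Mtf2, an accessory subunit, at 90.8 CPM in PHD2-KO and 59.8 CPM in WT cells (1.52-fold). The PRC2 median was 0.31. Of 6 H3K36 methyltransferases 2 were called higher, Setd2 at 32.4 CPM in PHD2-KO and 21.5 CPM in WT cells (1.51-fold) and Ash1l at 16.8 CPM in PHD2-KO and 10.7 CPM in WT cells (1.57-fold), with a median of 0.45. Of 5 H3K9 methyltransferases 0 were called (median 0.30), the largest ratio being that of Suv39h1 at 19.6 CPM in PHD2-KO and 14.1 CPM in WT cells. Of 12 genes of the H3K4 methyltransferase complexes 0 were called (median 0.21), the largest ratio being that of Kmt2a at 32.8 CPM in PHD2-KO and 23.3 CPM in WT cells.

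Of 13 enzymes that make or use 2-oxoglutarate, succinate or fumarate, which feed or inhibit the JmjC reaction, 0 were called (median 0.12). Ogdh, a subunit of the 2-oxoglutarate dehydrogenase complex, had the largest ratio at 35.0 CPM in PHD2-KO and 23.4 CPM in WT cells (1.49-fold). Of 7 oxygen-sensing genes 1 was called, the prolyl hydroxylase gene Egln3, a known HIF target, at 6.14 CPM in PHD2-KO and 1.87 CPM in WT cells (3.29-fold; 2.91 to 3.71), and the list median was 0.31.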

How the data were processed

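Per the file headers, Cell Ranger 4.0.0 wrote the deposited UMI counts, whole numbers for each gene and barcode, as 1 matrix for either library. Builds and tools named in the submitters' processing notes are mm10, Cell Ranger and Seurat. In the sources used here, reads per cell, the kit, the transcript end read and strand use in counting are not given. The deposited counts are not normalized. The PHD2-KO matrix held 7713 barcodes and 173470962 UMIs, and the WT matrix 9651 barcodes and 226179474 UMIs.

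A barcode was retained as a cell if it had 1000 genes or more and no more than 10% mitochondrial UMIs (298 PHD2-KO and 391 WT barcodes were below the first limit, 150 and 157 above the second). Scrublet (scanpy 1.11.5) marked 0 cells at its automatic threshold in either library, so the highest doublet scores were removed up to 0.8% per 1000 barcodes (456 PHD2-KO and 712 WT cells). This left 157618080 PHD2-KO and 201677981 WT UMIs. Log2 ratios are of CPM plus a pseudocount of 1, which understates changes of low genes. Every call runs on all genes at 5 CPM or more in the higher group. Chromosome ranges come from 2-component Gaussian mixtures (scikit-learn 1.9.0) over both libraries.

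The fold and its interval were tested on simulated data with known folds. The members, lists and splits were chosen with earlier results of these data known. The text names the 10 members, Egln1 and T, each list's called genes or else its largest ratio, and the 3 profiles nearest to a called member. Alternatives were other limits on cells, no doublet removal, other size factors, pseudocounts, thinning depths and T rules, no minimum level, and subsets by chromosome share and Zfp42; the high chromosome 11 and Zfp42 subsets were added after the data were seen. Of the 27998 genes, 27722 had a chromosome in GENCODE M21. With 1 library per group, nothing was tested across samples.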

Additional observations from a re-analysis of the deposited data

Results flagged for a closer look

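Kdm4c and Kdm6a stood out because their ratio of T+ to T- cells lay on opposite sides of 1 in the 2 libraries. Kdm4c was at 0.926-fold in PHD2-KO (0.817 to 1.05) and 1.07-fold in WT (0.916 to 1.24). Kdm6a was at 1.05-fold in PHD2-KO (0.951 to 1.151) and 0.928-fold in WT (0.795 to 1.08). All 4 intervals hold 1, and the difference between the libraries was not tested.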

How the results depend on the processing

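No paired analysis was possible because each group is 1 library, and for the same reason no replicate could be left out. Kdm3a was called higher in PHD2-KO cells under all 11 alternatives over all cells or subsets that bear on calls, between 1.86-fold and 2.20-fold in 10 of them and 20.5-fold, on 1 WT UMI, in the high chromosome 11 range. Within T+ cells with at least 2 T UMIs it was 2.64-fold. The number of members called, 1 over all kept cells, was 2 within the low chromosome 8 range (Kdm3a and Kdm5b), 2 within the high range (Kdm3a and Kdm6a), 2 in Zfp42- cells (Kdm3a and Kdm5b), 3 within the high chromosome 11 range (72 WT cells; Kdm3a, Kdm4a and Kdm4c), and within T+ cells 3 with at least 2 T UMIs (Kdm3a, Kdm4c and Kdm6a). The cause was not tested. The members' median log2 ratio lay between 0.26 and 0.42. Of 130 single-member values of that comparison 100 moved by less than counting error and 30 by more, and 4 changed sign, 3 of Kdm4a and 1 of Kdm4b. Between T+ and T- cells of PHD2-KO no alternative gave a called member, 6 of 140 values moved and 13 changed sign. Of the related genes on lists, 8 were called between the libraries, against 2 with size factors from median ratios 13 with no minimum level and 14 in the high chromosome 11 range, and between T+ and T- cells 0 were called, against 3 with no minimum level, where more genes enter. Kdm6a ranged between 1.06-fold and 1.56-fold between the libraries. Depth limits Kdm4b (under 5 CPM), WT T+ cells (511 cells, 49 Kdm3a UMIs) and WT cells with both T and Mesp1 (1). Cultures and clones are not replicated.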
